A study of Mus musculus with 3 samples.

Results

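Dividing secondary-granule neutrophil precursors were taken from mouse bone marrow profiled by droplet single-cell RNA sequencing. A cell counted as one of them when Ltf, Ngp, Camp and Lcn2 together held at least 2% of its unique molecular identifiers (UMIs, the counted RNA molecules) and when Top2a, Mki67, Ube2c, Birc5, Cdk1 and Nusap1 together gave at least 5 UMIs. Cells with at least 3 UMIs from at least 2 of the late neutrophil genes Il1b, G0s2, Cxcr2 and Retnlg were left out. Of 17879 cells that passed the filters on depth and mitochondrial RNA, 911 met the rule. The cells were thus chosen by measured RNA, so the levels of these 14 genes, and of any gene that goes with them, describe the choice of cells and are given without a test.

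The study made 3 libraries, 1 for each Fabp4 genotype. These were wild type, heterozygous knockout and homozygous knockout, as each sample's genotype label gives them. The study describes mixtures from 2 mice of each genotype, which is read here as 2 mice per library although its wording could also mean that each sample mixed the genotypes, and the files do not tie cells to mice. Fabp4 encodes a cytosolic carrier of fatty acids, and the series asks what its loss does to leukaemia stem cells and to normal blood stem cells. The labels give the tissue only as bone marrow, with no age, sex, strain or stated leukaemia, and the extent of the Fabp4 deletion is not described. The spread between animals is unknown because each genotype has 1 library, so each difference below is between these libraries, and every interval is a 95% interval for counting error only.

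The dividing granule cells numbered 201 in the wild-type library, 498 in the heterozygous library and 212 in the homozygous library. They carried 3257331, 7612696 and 3129118 UMIs in that order, with a median of 14782, 14501 and 12817 UMIs and 3862, 3906 and 3667 genes per cell. Fabp4 itself gave 0, 1 and 0 UMIs in them. A count of 0 allowed up to 0.921 counts per 1000000 UMIs (CPM) in the wild-type cells and up to 0.959 CPM in the homozygous cells, so the knockout could not be checked there. Over all kept cells Fabp4 stood at 0.745 CPM (0.553 to 0.982) in the wild-type library, 0.521 CPM (0.369 to 0.716) in the heterozygous library and 0.108 CPM (0.0352 to 0.253) in the homozygous library, an order that follows the labels. These 3′ counts cannot show whether the remaining homozygous molecules come from outside the deleted part.

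Neutrophils are made in the marrow through stages that are named for their granules. Promyelocytes load primary granules with myeloperoxidase, neutrophil elastase and proteinase 3, and myelocytes then fill secondary granules with lactoferrin (Ltf), cathelicidin (Camp), neutrophilic granule protein (Ngp) and lipocalin 2 (Lcn2). The myelocyte is the last stage that divides, and the metamyelocytes and band cells that follow leave the cell cycle and add gelatinase granules, adhesion molecules and chemoattractant receptors. The transcription factor C/EBP epsilon (Cebpe) is needed for the secondary granule genes, and ficolin B (Fcnb) is a pattern-recognition protein made by immature neutrophils.

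The promoters of the granule genes that defined the cells are shown because C/EBP factors bind sites built from the short elements TTGC and GCAA. Sequences are the RefSeq windows of GRCm38.p6 from 250 bases before to 50 bases after the start of transcription, 5′ to 3′ on the strand of the gene, with matches to TTGCNNAA on either strand in capitals. Of 6 genes looked up, Cebpe had no entry and 5 matched. Camp lies at chr9:109849407-109849706 on the minus strand, Ngp at chr9:110419558-110419857 on the plus strand, Ltf at chr9:111019042-111019341 on the plus strand and Lcn2 at chr2:32387690-32387989 on the minus strand.
Camp: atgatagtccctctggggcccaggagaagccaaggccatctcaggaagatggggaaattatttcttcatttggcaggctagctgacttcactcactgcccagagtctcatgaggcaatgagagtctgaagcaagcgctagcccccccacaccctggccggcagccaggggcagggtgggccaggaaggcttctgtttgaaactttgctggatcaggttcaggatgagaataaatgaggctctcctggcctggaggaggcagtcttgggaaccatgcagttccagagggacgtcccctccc
Ngp: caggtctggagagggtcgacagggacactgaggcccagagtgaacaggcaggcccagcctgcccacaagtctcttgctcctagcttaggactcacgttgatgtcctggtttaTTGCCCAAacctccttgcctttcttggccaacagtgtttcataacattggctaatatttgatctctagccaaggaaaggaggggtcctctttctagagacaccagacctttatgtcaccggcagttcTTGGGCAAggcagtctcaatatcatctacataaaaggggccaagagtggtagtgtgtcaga
Ltf: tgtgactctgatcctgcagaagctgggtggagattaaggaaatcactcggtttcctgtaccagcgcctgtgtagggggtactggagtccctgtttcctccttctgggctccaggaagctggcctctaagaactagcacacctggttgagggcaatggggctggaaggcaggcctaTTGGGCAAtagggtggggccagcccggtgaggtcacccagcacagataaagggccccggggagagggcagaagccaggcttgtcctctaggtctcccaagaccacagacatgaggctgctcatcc
Lcn2: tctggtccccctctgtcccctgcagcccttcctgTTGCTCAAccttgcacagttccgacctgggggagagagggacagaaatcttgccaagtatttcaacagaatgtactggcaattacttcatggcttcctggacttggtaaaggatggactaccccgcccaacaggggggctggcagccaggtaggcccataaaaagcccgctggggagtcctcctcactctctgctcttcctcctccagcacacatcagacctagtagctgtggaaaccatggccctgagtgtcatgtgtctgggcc
The Ngp window held 2 matches, which began 138 and 11 bases before the start. Ltf held 1 match, 75 bases before the start, Lcn2 held 1 match, 216 bases before it, and the Camp window held 0. The window of Fcnb, at chr2:28084829-28085128 on the minus strand, held 2 matches, 235 and 123 bases before the start. Of all 32851 windows of this length, 10.8% held TTGCNNAA. In all 6 motifs were searched on both strands. The looser TTNCNNAA, which contains every TTGCNNAA match, was in 40.7% of windows, the palindrome TTGCGCAA in 0.183%, the PU.1-type CACTTCCTG in 1.44%, the STAT-type TTCNNNGAA in 8.30% and a spaced interferon-response motif in 3.44%. A match describes these letters and is not evidence of binding.

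Of the 5 markers of the label, Camp, Ngp and Top2a belong to the rule and describe the choice of cells, and Fcnb and Cebpe lie outside it. Camp stood at 24578, 29423 and 27510 CPM in the wild-type, heterozygous and homozygous cells, and Ngp at 10374, 12801 and 8111 CPM. Fcnb was detected in 95.5%, 98.0% and 94.8% of the cells, and Cebpe in 89.6%, 92.0% and 87.3%. Top2a, a DNA topoisomerase of dividing cells, stood at 460, 425 and 635 CPM.

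Apart from the stem and progenitor list, markers of other cell types were present at low levels or not detected. The eosinophil genes Epx, Ear1, Ear6 and Il5ra, the T cell genes Cd3e and Trbc2, the erythroid gene Car1 and the macrophage gene C1qb had 0 UMIs in all 3 libraries. The 12 monocyte markers, all detected, summed to 163, 199 and 231 CPM, and the 8 dendritic markers, of which 5, 7 and 6 were detected, to 41.8, 74.1 and 26.2 CPM. The 8 macrophage markers, of which 6, 4 and 4 were detected, summed to 83.8, 75.3 and 55.6 CPM, nearly all from Adgre1 and Vcam1. The mast cell and basophil list summed to 22.7, 26.4 and 14.4 CPM, most of it Hdc, the B cell list to 14.7, 11.3 and 14.4 CPM, most of it Cd79b, and the T and NK list to 2.76, 1.71 and 4.15 CPM. The eosinophil, megakaryocyte and erythroid lists summed to at most 16.0 CPM in any library. The stem and progenitor list summed to 1405, 1168 and 925 CPM. Most of that came from Meis1, at 994, 592 and 594 CPM, and Mecom, at 352, 522 and 281 CPM. Mecom was detected in 75.1%, 88.2% and 60.4% of the dividing granule cells. Called doublets made up 4.48%, 7.23% and 5.66% of the dividing granule cells, against 4.48%, 6.37% and 3.45% of all kept cells. The part of RNA from these cell types or from doublets in the comparisons of libraries below was not tested.

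RNA released from other cells was gauged in T and NK cells, which should hold no granule RNA. Called doublets and cells with 1% or more primary granule RNA were left out of them. In 23 wild-type, 16 heterozygous and 27 homozygous T and NK cells the median share of the 4 granule genes was 0.0336%, 0.143% and 0.0383% of UMIs, and 0 of them reached 2%. Their median depth was 5950, 7376 and 8925 UMIs. The heterozygous library therefore had the highest granule background, and the rule also left out 215 heterozygous cells for late neutrophil RNA, against 4 wild-type and 13 homozygous cells. At least 1 UMI of a late gene was present in 36.3%, 74.3% and 41.5% of the dividing granule cells and in 4.35%, 31.3% and 11.1% of the T and NK cells.

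Dividing granule cells made up 3.59% (3.12 to 4.11) of kept wild-type cells, 6.26% (5.74 to 6.81) of heterozygous cells and 4.91% (4.28 to 5.60) of homozygous cells. The wild-type interval lay below both knockout intervals. The rule asks for a number of UMIs, so each cell was also thinned to 5000 UMIs, which left out 14.5%, 24.7% and 27.2% of kept cells as too shallow. The shares were then 3.01% (2.54 to 3.53), 8.41% (7.72 to 9.14) and 5.54% (4.76 to 6.39), in the same order. After thinning 22 heterozygous cells were left out for late neutrophil RNA, against 215 at full depth, and 504 were counted.

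The homozygous library differed most in how many of its secondary-granule cells were dividing. Of 650 wild-type, 1690 heterozygous and 430 homozygous cells at 2% granule RNA or more and without the late genes, 30.9% (27.4 to 34.6), 29.5% (27.3 to 31.7) and 49.3% (44.5 to 54.1) were dividing. The order of the libraries in the share of kept cells was the same under all 11 alternative settings of the rule and filters. After thinning the shares among secondary-granule cells were 23.8% (20.5 to 27.4), 26.1% (24.2 to 28.1) and 42.6% (37.8 to 47.6). The homozygous interval lay above the others at either depth, and the wild-type and heterozygous intervals overlapped. These are counts of cells in 1 library each, and the spread over mice is not known.

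**Figure D1:**
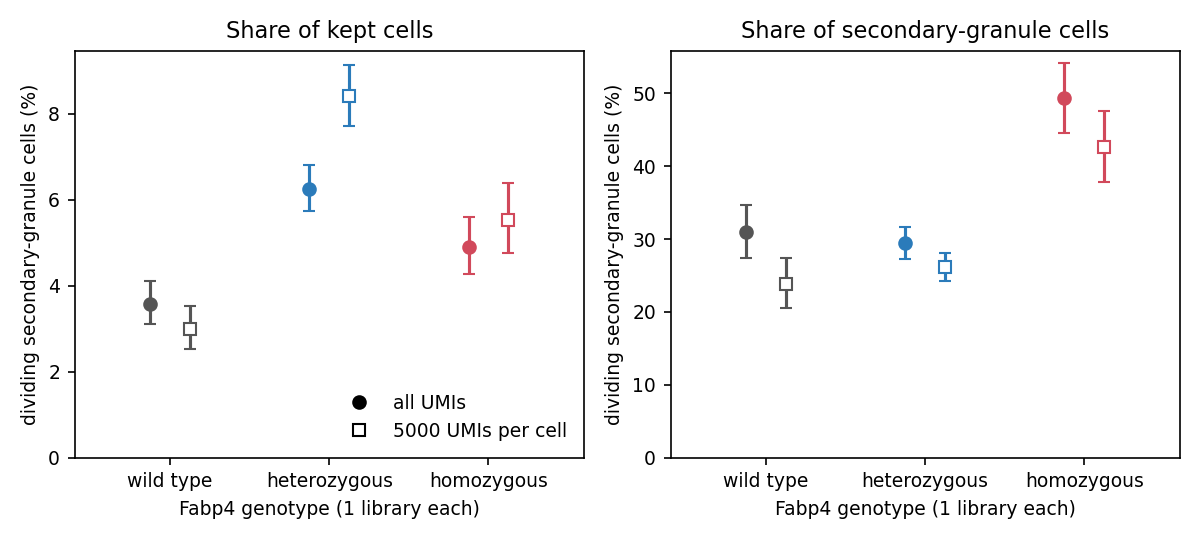
Dividing secondary-granule cells in each library as a percent of kept cells (left) and of all secondary-granule cells (right). Filled circles use all UMIs and open squares use cells thinned to 5000 UMIs, bars are 95% binomial intervals, and the homozygous library stands at 49.3% and 42.6% on the right against at most 30.9% in the other libraries.

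Some cells sat at the edges of the rule. Division sums of exactly 5 UMIs were found in 9, 31 and 5 cells just inside and sums of exactly 4 UMIs in 16, 33 and 13 cells just outside, while the median division sum was 25, 22 and 29 UMIs. The granule share was between 2% and 2.5% in 36, 63 and 51 of the cells, and between 1.5% and 2% in a further 37, 60 and 31 cells outside. The median granule share was 3.44%, 4.04% and 3.25%, and the highest was 8.98%, 12.0% and 10.8%.

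The dividing granule cells stood between 2 neighbouring groups of the same libraries. The earlier group was dividing primary-granule cells, in which Mpo, Elane, Prtn3 and Ctsg held at least 1% of UMIs and the secondary genes under 2%, with 216 wild-type, 73 heterozygous and 181 homozygous cells. The later group was non-dividing secondary-granule cells with a division sum of 0 or 1 UMI, with 357, 947 and 159 cells. Of genes with at least 50 UMIs, 10.5%, 14.1% and 18.1% were at least 2-fold higher in the dividing granule cells than in the non-dividing cells of the wild-type, heterozygous and homozygous library, and 5.97%, 6.37% and 7.78% at least 2-fold lower. Against the dividing primary-granule cells 3.82%, 4.91% and 3.2% were at least 2-fold higher and 6.56%, 7.42% and 7.03% lower. Median depth differed between the groups, at 7569, 7478 and 7674 UMIs in the non-dividing cells and 24163, 22031 and 22287 UMIs in the primary-granule cells, and its part in these ratios was not tested.

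Primary granule genes were low but still present. Elane, neutrophil elastase, stood at 1957, 1360 and 2189 CPM in the dividing granule cells of the 3 libraries, against 8741, 7258 and 8346 CPM in the primary-granule cells and 831, 476 and 663 CPM in the non-dividing cells. Mpo, myeloperoxidase, was lower by a larger ratio, at 122, 121 and 69.3 CPM against 2391, 2155 and 1899 CPM in the primary-granule cells and 62.9, 38.1 and 28.5 CPM in the non-dividing cells. Both genes helped to define the primary-granule cells, so their high level there describes the choice of cells. Cd34, a surface protein of early progenitors, was at 2.76, 1.05 and 1.28 CPM against 13.8, 29.8 and 17.7 CPM in the primary-granule cells.

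The secondary granule genes of the rule and Fcnb, which is counted in the primary granule list below, did not move together along this order. Camp and Fcnb were at or near their highest level in cells that still divided, with Camp at 21180, 24835 and 26048 CPM in the non-dividing cells, and Fcnb at 514, 861 and 697 CPM there against 634, 1014 and 670 CPM in the dividing ones. Ltf and Lcn2 were mostly lower while cells divided. Ltf stood at 313, 392 and 135 CPM in the dividing cells and at 1606, 2300 and 1926 CPM in the non-dividing cells, and Lcn2 at 2998, 2861 and 1641 CPM against 9368, 9393 and 9690 CPM. Cebpe was close to level between the dividing and non-dividing cells, at 341, 369 and 358 CPM against 367, 382 and 384 CPM, and lower in the primary-granule cells, at 226, 202 and 185 CPM.

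Genes of later neutrophil functions were lower in the dividing cells. Of 19 secondary and tertiary granule genes outside the rule that could be compared in the wild-type library, 12 were at least 2-fold lower than in the non-dividing cells and 0 were 2-fold higher, with 11 of 19 and 13 of 18 lower in the heterozygous and homozygous libraries. Among all genes 5.97%, 6.37% and 7.78% were at least 2-fold lower in the 3 libraries. Mmp8, a granule collagenase, was at 12.9, 30.2 and 3.83 CPM against 149, 386 and 380 CPM. Ly6g, the surface protein used to recognise mouse neutrophils, was at 35.9, 69.9 and 22.4 CPM against 317, 470 and 323 CPM, and Fpr1, a formyl peptide receptor, at 1.23, 11.2 and 1.28 CPM against 60.6, 128 and 157 CPM. All 6 NADPH oxidase genes were lower in the dividing cells in each library, though 1, 1 and 2 of them by 2-fold or more. Of all genes 44.9%, 39.4% and 39.7% were lower than in the non-dividing cells by any amount. Cybb, the catalytic subunit, stood at 454, 675 and 463 CPM against 930, 1325 and 1347 CPM.

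The stefin and S100a genes marked the change from the primary-granule cells. S100a8, which forms calprotectin with S100a9, stood at 43706, 47104 and 42220 CPM against 4512, 4844 and 4973 CPM, and Stfa2l1, a stefin A family cysteine protease inhibitor, at 1466, 1279 and 1216 CPM against 30.7, 56.6 and 6.91 CPM. Of 15 genes of these families compared in the wild-type library, 10 were at least 2-fold higher than in the primary-granule cells, against 3.82% of all genes. Genes of growth were lower than in the primary-granule cells, with all 26 ribosome biogenesis genes lower in the wild-type library (median log2 ratio -0.95), and all 32 nuclear respiratory chain genes lower (median -0.41). Of all genes compared with the primary-granule cells 59.6%, 59.5% and 63.1% were lower by any amount, with a wild-type median of -0.12. Fabp5, a fatty acid-binding protein, was at 4.30, 5.91 and 7.35 CPM against 25.7, 37.1 and 75.1 CPM.

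Ranked by the smallest log2 ratio over the 3 libraries, the genes furthest above the non-dividing cells were Pbk, Esco2, Kif18b, H1f5, H2ac4, Ccna2, Nuf2, Mxd3, Ska1 and H2bc15, most of them known for roles in mitosis, chromatid cohesion or chromatin. The rule chose dividing cells, so these ranks describe that choice. Ccna2, cyclin A2, stood at 66.0, 49.8 and 102 CPM against 1.70, 1.49 and 1.58 CPM. Those furthest below, ranked by the largest log2 ratio over the libraries, included Plbd1, Mmp8, Fpr1, Thbs1, Slfn1, S100a6, Trpm2, Marchf1 and Adam8. Marchf1, a ubiquitin ligase, was at 30.7, 36.1 and 16.9 CPM in the dividing cells and at 295, 324 and 321 CPM in the non-dividing cells.

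Against the primary-granule cells the highest ranks went to Stfa2l1, Cstdc5, Orm1, Cstdc4, Cpa6, Stfa2, Syne2, Stfa1, S100a8 and Fpr2. Of these 10 genes Stfa2l1, Cstdc5, Cstdc4, Stfa2 and Stfa1 belong to the stefin family, whose near-identical copies may share reads. Orm1, an acute phase protein, stood at 38.7, 22.6 and 25.6 CPM against 0.930, 1.22 and 0.230 CPM. The lowest ranks included Mpo and Ctsg, which helped to define the primary-granule cells, and Bex6, Pkib, Tmem156, Fabp5, Kcnq5, Pcp4l1 and Cd34.

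**Figure D2:**
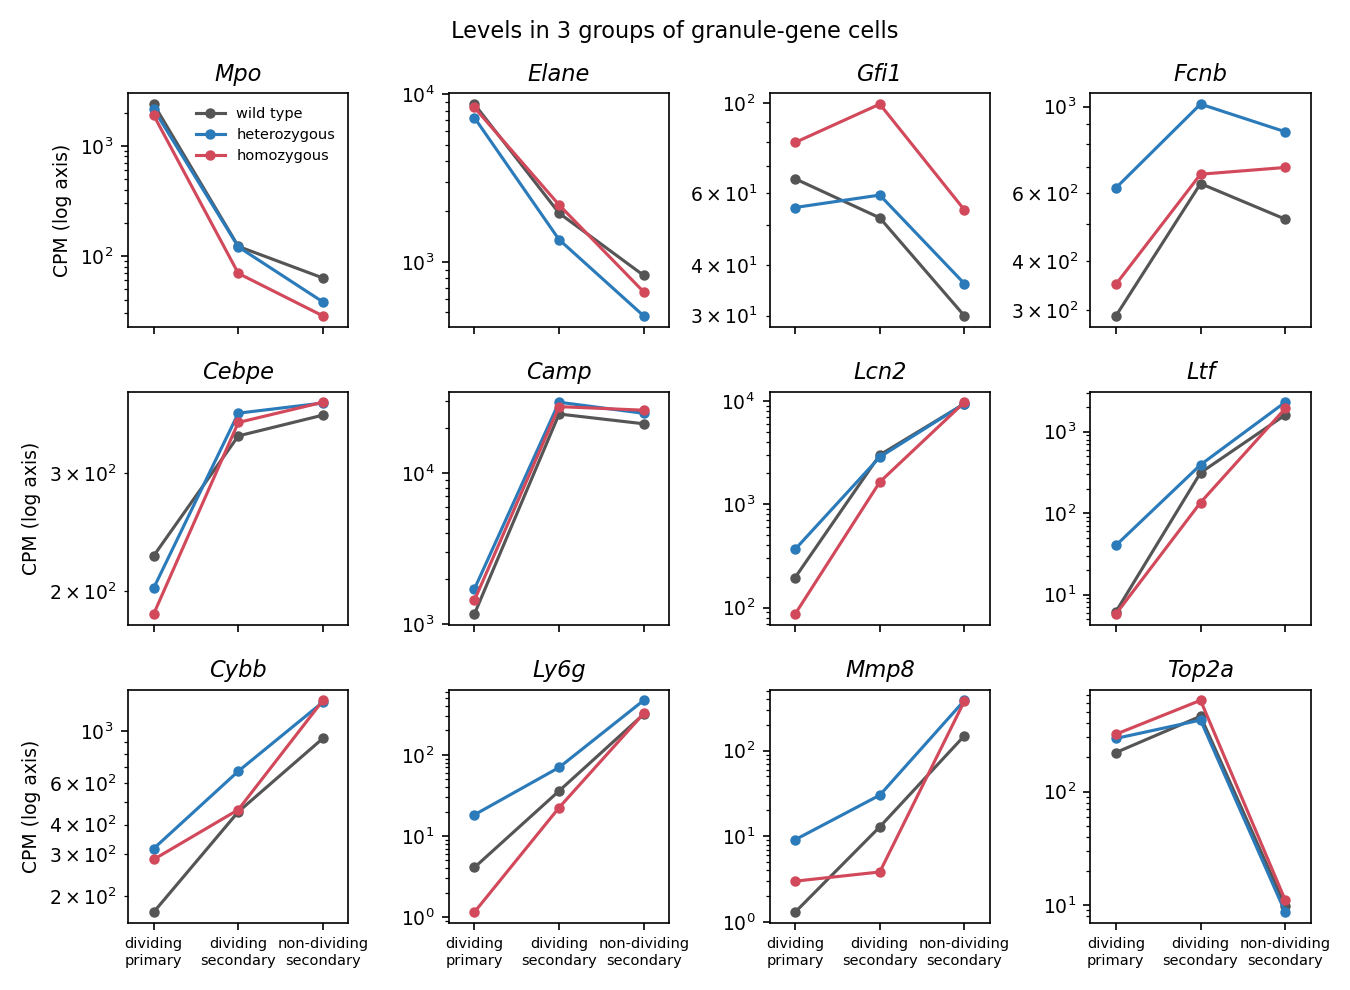
Summed CPM (log axes, scaled separately for each gene) of 12 genes in dividing primary-granule cells, dividing secondary-granule cells and non-dividing secondary-granule cells, with 1 line per library. Mpo and Elane are highest in the first group, Camp reaches 24578 to 29423 CPM in the second, and Ltf, Ly6g and Mmp8 are highest in the third.

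The dividing granule cells also varied among themselves. Cells were split at a granule share of 5%, with 155, 320 and 166 cells from 2% to 5% and 46, 171 and 45 cells from 5% to 10%, and the 7 heterozygous cells and 1 homozygous cell above 10% stayed out of this split. From the lower to the higher bin the share of UMIs in Mpo, Elane, Prtn3 and Ctsg went from 0.384% to 0.257% in the wild-type library, from 0.311% to 0.138% in the heterozygous library and from 0.417% to 0.242% in the homozygous library. Ltf, one of the genes behind the split, went from 188 to 775 CPM, from 248 to 640 CPM and from 76.5 to 394 CPM. Lyz2, lysozyme, which was in neither the rule nor the split, went from 614 to 1741 CPM, 718 to 1374 CPM and 458 to 1364 CPM. Myb, a transcription factor of immature cells, had lower levels in the higher bin, 170 and 115 CPM in the wild-type library, 190 and 130 CPM in the heterozygous library and 237 and 129 CPM in the homozygous library. Nearly all cells held some primary granule RNA, since 0, 6 and 5 cells had no such UMI, and in 10, 13 and 14 cells its share was at least 1%.

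Before the genotypes are compared, the heterozygous library has to be set apart in 1 respect. Of its 498 dividing granule cells, 338 had Y-linked RNA and no Xist, 41 had Xist alone, 80 had both and 39 neither, while 188 of 201 wild-type and 206 of 212 homozygous cells had Xist alone. Genotype and sex of the mice therefore cannot be told apart when the heterozygous library is compared with the others. No barcode of a dividing granule cell was shared between libraries. The comparisons of the 2 knockout libraries with the wild type share the wild-type cells.

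Between libraries few genes differed by 2-fold. Of 9547 genes with at least 50 UMIs, 1.61% were at least 2-fold higher and 1.3% at least 2-fold lower in heterozygous than in wild-type dividing granule cells, with 49.4% higher by any amount. Of 8449 genes in the homozygous comparison, 0.911% were at least 2-fold higher and 1.56% at least 2-fold lower, with 52.9% higher by any amount. Of 9506 genes compared between the knockout libraries, 1.53% were at least 2-fold higher and 2.63% at least 2-fold lower in the homozygous cells, with 53.9% higher by any amount. The median log2 ratio over all genes lay at 0.00, 0.02 and 0.04. The interval of the ratio lay above 0 for 14% and below 0 for 14.1% of genes in heterozygous against wild-type cells, and above 0 for 14.3% and below 0 for 13.2% in homozygous against wild-type cells.

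Homozygous dividing cells had less RNA of the later granule genes. Of 16 secondary and tertiary granule genes outside the rule, 14 were lower than in wild-type cells (median log2 ratio -0.37), and the interval lay below 0 for 11 of them, against 13.2% of all genes. Anxa1, annexin A1, stood at 472 CPM in wild-type, 454 CPM in heterozygous and 276 CPM in homozygous cells, a homozygous log2 ratio of -0.77 (-0.89 to -0.65). Cd177, a neutrophil surface glycoprotein, was at 267, 230 and 160 CPM, and Chil3, a chitinase-like protein, at 4766, 3962 and 3373 CPM. For these genes the homozygous cells were the lowest and the heterozygous cells stood between, although the heterozygous interval of Anxa1 included 0. The median granule share of the homozygous cells was also slightly lower, 3.25% against 3.44%, and over all processing alternatives, equal weights for bins of granule share among them, the list's median lay between -0.44 and -0.25.

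Of the granule genes in the rule, Ltf was at 313, 392 and 135 CPM, a homozygous log2 ratio of -1.22 (-1.38 to -1.05), and was detected in 56.7%, 79.7% and 26.9% of cells. Lcn2 had a homozygous log2 ratio of -0.87 (-0.92 to -0.82), while Camp was slightly higher at 0.16 (0.15 to 0.18). The lower granule levels were not seen in the homozygous cells that no longer divided. There 14 of the 19 outside granule genes were higher than in wild type (median log2 ratio 0.26), while in dividing primary-granule cells 11 of 13 were lower (median -0.16). The shares over all genes in these neighbouring groups are not given here, so these counts are not set apart from a general shift. The differences between groups of cells were not tested.

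In heterozygous cells the same list was balanced, with 10 of 17 higher and 7 lower (median log2 ratio 0.06). At least 2-fold higher were 3 of the 17 genes, Mmp8, Mmp9 and Adam8, against 1.61% of all genes. Mmp9, gelatinase B, stood at 31.6 CPM in wild-type, 64.8 CPM in heterozygous and 22.7 CPM in homozygous cells, Mmp8 at 12.9, 30.2 and 3.83 CPM, and Adam8, a membrane protease, at 4.61, 16.0 and 4.15 CPM. Slpi, a leukocyte protease inhibitor, came just short of 2-fold, at 637, 1271 and 405 CPM. Ly6g had a heterozygous log2 ratio of 0.96 (0.67 to 1.26) and a homozygous one of -0.68 (-1.13 to -0.24). The heterozygous library was also the one with the most granule and late neutrophil RNA in its T and NK cells, and the part of this background in these ratios was not tested.

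Primary granule genes were split by library. Elane was lower in the heterozygous cells, with a log2 ratio of -0.52 (-0.57 to -0.48), and so was Prtn3, proteinase 3, at 1381, 924 and 1452 CPM. Mpo instead was lower in the homozygous cells, with a log2 ratio of -0.81 (-1.06 to -0.57). Fcnb was highest in heterozygous cells, at a log2 ratio of 0.68 (0.61 to 0.75). The 11 genes of the primary granule list, Fcnb among them, had a heterozygous median log2 ratio of -0.01, whose sign changed under several processing alternatives. The homozygous median was 0.08, which is the ratio of Fcnb.

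Of 17 granulocyte transcription factors 0 reached 2-fold in either comparison, where under 2% of all genes did so in each direction, and the median log2 ratio was 0.10 in heterozygous and 0.07 in homozygous cells. Cebpe differed little, with log2 ratios of 0.11 (0.01 to 0.21) in heterozygous and 0.07 (-0.05 to 0.19) in homozygous cells. The homozygous cells had more Gfi1, a repressor needed for neutrophil development, at 52.2, 59.4 and 99.4 CPM and a log2 ratio of 0.93 (0.65 to 1.21). They also had more Cebpb, a factor of stress granulopoiesis, at 362, 388 and 599 CPM, and less Ikzf1, which encodes Ikaros, at 463, 392 and 296 CPM. Spi1, which encodes PU.1, was level at 439, 442 and 444 CPM.

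Of 17 surface receptors compared 13 were higher in heterozygous cells (median log2 ratio 0.13), against 49.4% of all genes. Intervals lay above 0 for 3 and below 0 for 2, near the 14% and 14.1% of all genes. Of 13 in homozygous cells 7 were higher (median 0.08), against 52.9% of all genes. Cxcr4, the chemokine receptor that holds neutrophils in the marrow, was higher in both knockout libraries, at 45.1 CPM in wild-type, 73.2 CPM in heterozygous and 66.5 CPM in homozygous cells. Csf2rb, the shared beta chain of the GM-CSF receptor, was lower in both, at 48.2, 20.6 and 32.3 CPM. Csf3r, the receptor for the growth factor G-CSF, had intervals that included 0 in either comparison. Of 6 NADPH oxidase genes 3 were higher and 3 lower in each comparison, with Cybb at a heterozygous log2 ratio of 0.57 (0.49 to 0.66) and Ncf4 at -0.56 (-0.64 to -0.47).

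The homozygous cells had more RNA of the mitotic genes. Of 43 genes of the G2 and M phases outside the rule, 41 were higher than in wild-type cells and 2 lower, with a median log2 ratio of 0.42, and the interval lay above 0 for 36 of them, against 14.3% of all genes. Cenpf, a centromere protein, stood at 155 CPM in wild-type, 133 CPM in heterozygous and 268 CPM in homozygous cells, Aurka, a spindle kinase, at 59.3, 70.3 and 107 CPM, and Kif23, a kinesin of cell separation, at 92.4, 117 and 155 CPM. The rule's own 6 division genes summed to 1796, 1700 and 2425 CPM. The rule asks for a fixed number of UMIs and the homozygous cells were shallower, with a median of 12817 against 14782 UMIs, and the part of depth in this ratio was not tested. In dividing primary-granule cells 42 of 44 of these genes were higher in the homozygous library (median 0.44). Those cells were chosen with the same threshold of division UMIs. They were also shallower in the homozygous library, with a median of 22287 against 24163 UMIs in wild type, so this count has the same limit. The share over all genes in them is not given here. At least 5 division UMIs were also found in 6 of 27 homozygous T and NK cells, against 0 of 23 wild-type and 1 of 16 heterozygous ones. The heterozygous cells showed no such shift, with 22 of 44 higher and 22 lower and a median of -0.01 whose sign changed with the scaling.

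S phase genes did not follow the mitotic genes. In homozygous cells 23 of 40 were higher and 17 lower, with a median log2 ratio of 0.08 that was -0.23 at a granule threshold of 4%, and in heterozygous cells 9 were higher and 31 lower (median -0.15), led by Nasp, a histone chaperone, at 391, 277 and 304 CPM. Replication-dependent and linker histones were higher in both knockout libraries, 11 of 12 in heterozygous cells (median 0.41) and 10 of 12 in homozygous cells (median 0.38). These 12 were the only ones of the 28 listed histone genes found among the counted genes. Beside these S phase and histone counts, 49.4% of all genes were higher in heterozygous and 52.9% in homozygous cells. H1f5, a linker histone, stood at 363, 547 and 744 CPM.

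Among cell cycle brakes, Cdkn2c, the inhibitor p18, was at 136 CPM in wild-type, 176 CPM in heterozygous and 43.5 CPM in homozygous cells, a homozygous log2 ratio of -1.64 (-1.93 to -1.36). Cdkn1c, the inhibitor p57, went the other way in homozygous cells, at 51.6, 38.5 and 94.6 CPM. Cdk6, the kinase that p18 inhibits, was at 1007, 954 and 956 CPM. Over the 15 brakes and G1 cyclins compared the median log2 ratio was -0.08 in heterozygous cells and 0.07 in homozygous cells, the latter -0.16 at a granule threshold of 4%.

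Interferon response genes were expressed at low levels in the dividing granule cells and differed in direction between the knockout libraries. Of 20 genes compared in heterozygous cells, 6 were higher and 14 lower (median log2 ratio -0.24), and of 15 in homozygous cells 12 were higher and 3 lower (median 0.34). Among all genes 49.4% and 52.9% were higher in these comparisons. Isg15, a ubiquitin-like interferon product, stood at 5.22, 9.06 and 12.8 CPM and Irf7, an interferon regulatory factor, at 8.90, 7.36 and 16.9 CPM. Bst2, tetherin, was lower in heterozygous cells, at 22.4, 10.5 and 25.6 CPM. The homozygous median was higher in the neighbouring cells, 0.98 over 20 genes in non-dividing granule cells and 0.60 over 26 genes in dividing primary-granule cells. Medians over all genes in those neighbouring cells are not given here. The homozygous interferon median did not hold in the dividing granule cells richest in granule RNA, since with a granule threshold of 4% it was -0.013.

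Lipid genes were looked at because Fabp4 carries fatty acids. Of 19 fatty acid oxidation genes compared in homozygous cells, 14 were lower than in wild-type cells (median log2 ratio -0.26), among them Cpt1a, the entry enzyme of mitochondrial oxidation, at 35.3 CPM in wild-type, 32.1 CPM in heterozygous and 21.4 CPM in homozygous cells. Slc25a20, the carnitine carrier, was at 16.6, 16.4 and 8.31 CPM and Acsl1, which activates fatty acids, at 167, 171 and 103 CPM. The homozygous interval lay below 0 for 7 of the 19 genes, against 13.2% of all genes, and above 0 for 1. In heterozygous cells 15 of 20 oxidation genes were lower, with a median of -0.09. The interval lay below 0 for 1 of them, Acads, against 14.1% of all genes.

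Most cholesterol synthesis genes were lower in both knockout libraries, 12 of 16 in heterozygous cells (median log2 ratio -0.30) and 10 of 12 in homozygous cells (median -0.33). Intervals lay below 0 for 4 genes in each, against 14.1% and 13.2% of all genes. For 1 gene in homozygous cells the interval lay above 0. Fatty acid and triglyceride synthesis genes were near balance, with medians of 0.09 and -0.04, although Fasn, fatty acid synthase, was at 28.6, 15.1 and 18.2 CPM. Fabp5 had intervals that included 0 in both comparisons.

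Genes of biosynthesis were lower in heterozygous cells. Of 25 ribosome biogenesis genes 22 were lower than in wild-type cells (median log2 ratio -0.30), and of 24 endoplasmic reticulum and heat shock genes 21 were lower (median -0.30). Among all genes 49.4% were higher. The ribosome median moved to -0.11 at a granule threshold of 4% and to -0.15 with equal weights for bins of granule share. The endoplasmic reticulum median lay between -0.32 and -0.28 over all processing alternatives. Hspa8, a constitutive chaperone, stood at 850 CPM in wild-type, 640 CPM in heterozygous and 1003 CPM in homozygous cells, and Nop56, a nucleolar protein, at 115, 72.3 and 100 CPM. In homozygous cells the ribosome genes were balanced (median -0.01) and the endoplasmic reticulum genes were lower in 15 of 24 (median -0.20). Nuclear respiratory chain genes were slightly lower in heterozygous cells, in 25 of 32 (median -0.13). They were slightly higher in homozygous cells, in 26 of 32 (median 0.09), against 52.9% of all genes.

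**Figure D3:**
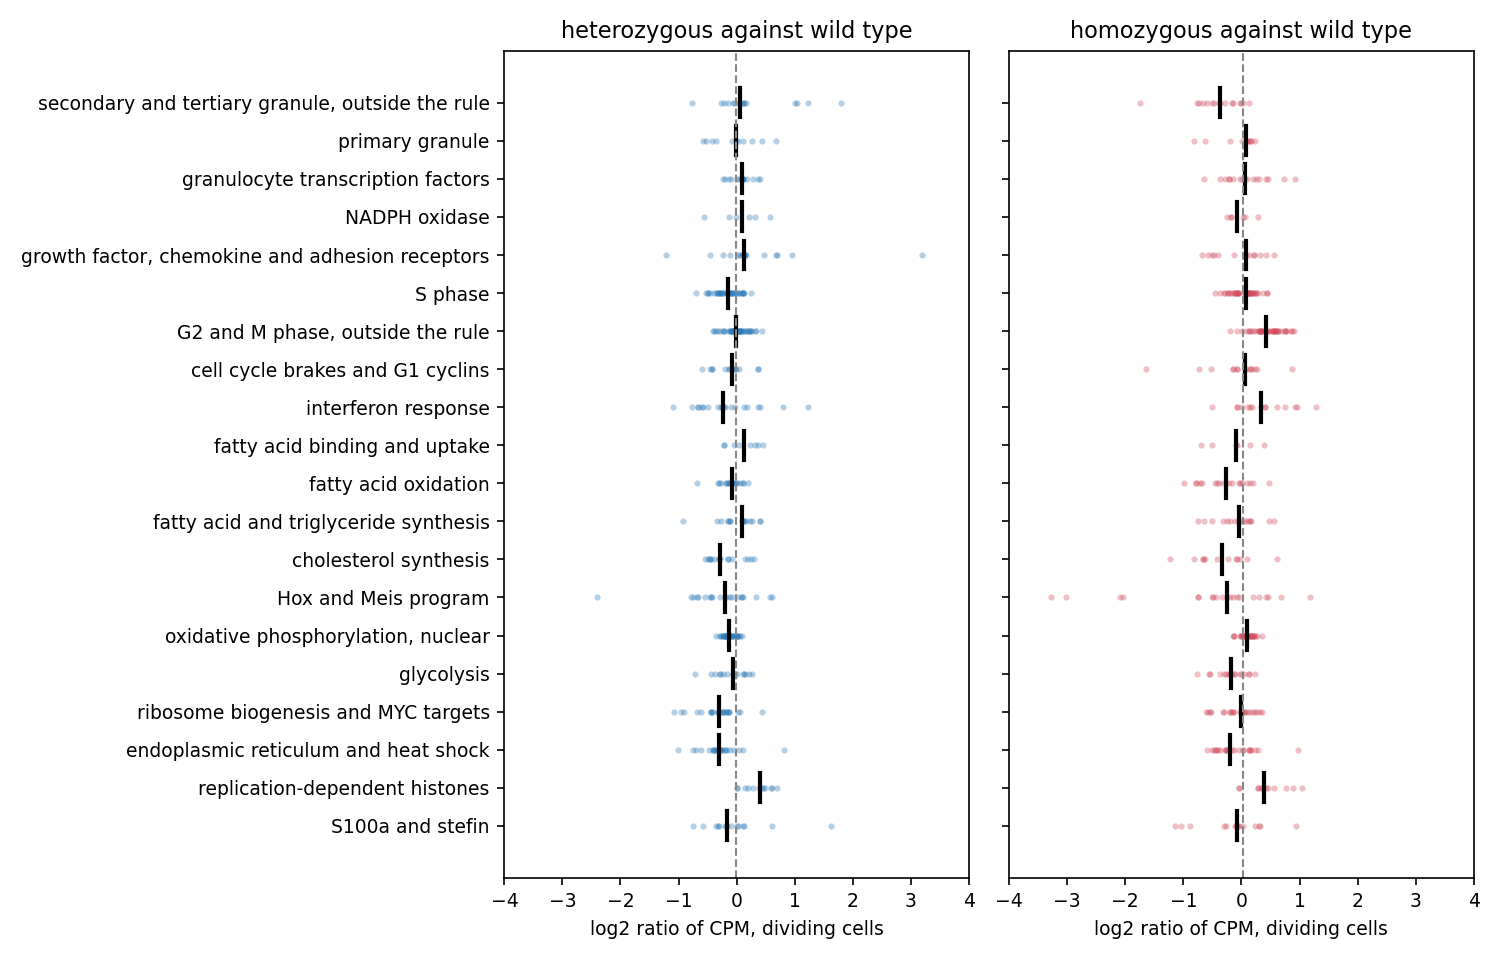
Log2 ratios of CPM in dividing secondary-granule cells against wild type, with 1 point per gene of each list, a black bar at the list's median and a dashed line at the median of all genes (0.00 in the heterozygous comparison, 0.02 in the homozygous one). In the homozygous panel the G2 and M genes sit to the right (median 0.42) and the secondary and tertiary granule genes to the left (median -0.37).

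Genes of the Hox and Meis program, which is active in stem cells and in many myeloid leukaemias, were found in these granule-bearing cells. Meis1, a homeobox cofactor of Hox proteins, was detected in 99.0%, 95.6% and 92.0% of the wild-type, heterozygous and homozygous cells, and Hoxa9 in 82.6%, 72.5% and 89.6%. Hoxa9 stood at 227, 155 and 362 CPM, a homozygous log2 ratio of 0.68 (0.54 to 0.81). Meis1 was lower in both knockout libraries, with log2 ratios of -0.75 (-0.81 to -0.68) and -0.74 (-0.83 to -0.66). Over 21 genes 14 were lower in heterozygous and 15 in homozygous cells, with medians of -0.20 and -0.25. Among all genes 49.4% and 52.9% were higher in these comparisons. The list was split, since intervals lay below 0 for 10 genes in heterozygous and 11 in homozygous cells, and above 0 for 5 in each.

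Pbx3, another Hox cofactor, separated the homozygous library from the others. It stood at 827 CPM in wild-type, 889 CPM in heterozygous and 102 CPM in homozygous cells, a homozygous log2 ratio of -3.03 (-3.20 to -2.86), and was detected in 93.5%, 97.8% and 49.1% of cells. The heterozygous level was close to wild type and the homozygous level far below both. The same log2 ratio was -2.45 in non-dividing granule cells and -2.97 in dividing primary-granule cells. Over the kept cells outside the dividing granule cells it was -2.54. That last set includes both neighbouring groups and leaves out the late neutrophil cells. Hoxa10 was higher in homozygous cells, at 35.9, 31.9 and 81.8 CPM.

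Further genes were named by a fixed rank, the bound of the interval nearest to 0. In homozygous cells the highest ranks went to Fstl1, Sdk1, Zfp791, Lars2, Camk1d, Cmss1, Cdk8, Penk, Il31ra and Gphn. Fstl1 RNA came from 1.42% of the homozygous cells. Lars2, the mitochondrial leucyl-tRNA synthetase, stood at 353, 298 and 1127 CPM, Cmss1 at 884, 667 and 2321 CPM and Penk, the enkephalin precursor, at 301, 305 and 772 CPM. Lars2 and Cmss1 were also higher in homozygous non-dividing granule cells, with log2 ratios of 1.37 and 0.95, and in dividing primary-granule cells, with 1.89 and 1.41. These 2 differences were thus present in each group of cells examined. The part of cell quality or library preparation in them was not tested.

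The lowest ranks in homozygous cells included Zc3h12c, Col19a1, C79798, Pbx3, Rgs7, Kcnq5, Ica1, Epha7 and Airn. Zc3h12c, a relative of the RNA-degrading regnase-1, stood at 66.0, 24.96 and 1.60 CPM. Col19a1, a collagen chain, was at 64.8, 288 and 2.24 CPM, and Epha7, an ephrin receptor, at 278, 682 and 80.2 CPM. Rgs7, a regulator of G protein signalling, was at 17.8, 28.2 and 0.959 CPM, the last of these from 3 UMIs. Airn, an imprinted antisense RNA, may share reads with the gene it overlaps, since strand handling is not given in the sources used here.

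In heterozygous cells the highest ranks went to Slc15a2, Alox5, Cxcl2, Vill, Col19a1, Fpr1, Egr1, Fos, Fosb and S100a6. Slc15a2, a peptide transporter, had 172 UMIs in heterozygous cells and 0 in both other libraries. With 3 counts taken as the wild-type floor it was 24.5-fold higher, and its log2 interval began at 4.30. Alox5, which makes leukotriene precursors, was 9.41-fold higher by the same floor, and its log2 interval began at 2.90. Neither was particular to the dividing granule cells. Heterozygous Slc15a2 stood at 22.6 CPM in them, 42.3 CPM in non-dividing and 15.8 CPM in primary-granule cells. Alox5 stood at 8.67, 23.2 and 2.43 CPM in that order. Wild-type levels in these neighbouring groups were 2.72 and 0.186 CPM for Slc15a2 and 4.76 and 0.186 CPM for Alox5. The part of background RNA was not tested. Cxcl2, a neutrophil chemokine, stood at 53.1, 304 and 30.7 CPM, and the immediate early gene Fos at 149, 515 and 275 CPM. Both were also higher in heterozygous non-dividing granule cells, with log2 ratios of 2.62 for Cxcl2 and 1.92 for Fos.

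The lowest ranks in heterozygous cells included Satb1, Airn, Irx5, Snx7, Kcnq5, Mt2, Cftr, Sox4 and Dand5. Satb1, a chromatin organiser, stood at 243, 34.6 and 143 CPM, a heterozygous log2 ratio of -2.81 (-3.02 to -2.61). Within the heterozygous library it differed between the 41 cells with Xist alone, at 145 CPM, and the 338 cells with Y-linked RNA alone, at 19.0 CPM. Col19a1 differed the other way, at 66.1 CPM in the Xist cells and 353 CPM in the Y-linked cells, and Irx5 and Sox4 were lower in the Y-linked cells, with log2 ratios of -3.27 and -3.12. Slc15a2 and Fos were alike in these cells, with intervals that included 0, at 21.5 and 22.8 CPM for Slc15a2 and at 557 and 504 CPM for Fos.

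The 41 heterozygous cells with Xist alone were also set against the Xist-only cells of the wild type. Col19a1 then had a log2 ratio of -0.044 where all cells gave 2.15, Satb1 -0.78 where all cells gave -2.81, and Sox4 0.54 where all cells gave -1.67. Cxcl2 remained higher, at 2.10. Some heterozygous differences thus rested on the Y-linked cells of the pool, and mouse, sex and genotype cannot be told apart in them.

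**Figure D4:**
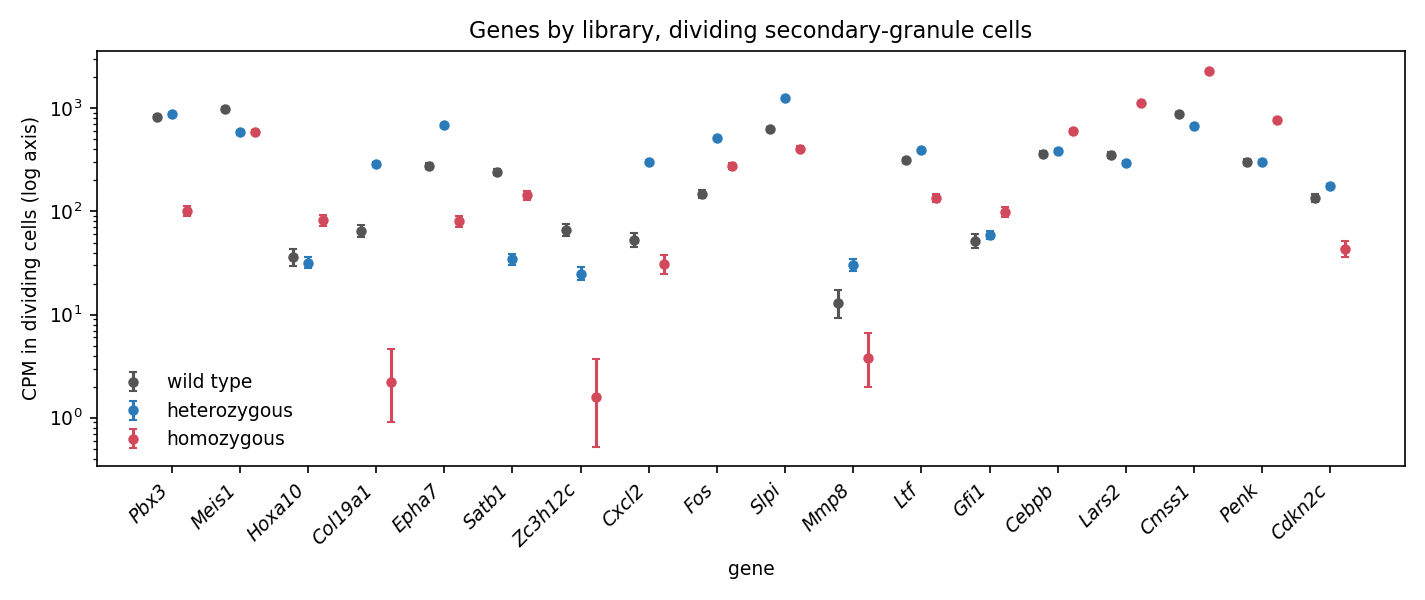
CPM (log axis) of 18 genes in dividing secondary-granule cells of the 3 libraries, with 95% Poisson intervals that are smaller than the point for abundant genes. Pbx3, Col19a1, Zc3h12c and Cdkn2c are lowest in the homozygous library, Lars2, Cmss1 and Penk highest there, and Slpi, Cxcl2 and Fos highest in the heterozygous library.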

How the data were processed

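Bone marrow cells of 3 libraries, 1 per Fabp4 genotype, were profiled with 10x 3′ chemistry. The deposited matrices hold raw UMI counts made with Cell Ranger 8.0.1, per the file headers, and Cell Ranger, STAR and the mm10 genome are named in the submitters' processing notes. The annotation release is not given in the sources used here. Groups were taken from each sample's genotype label. The libraries held 9432 wild-type, 10718 heterozygous and 8115 homozygous barcodes with 77173735, 78426908 and 54160590 UMIs.

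Cells were kept with at least 500 UMIs, 200 genes and under 10% mitochondrial UMIs, and counts were summed over the chosen cells of each library. CPM is UMIs per 1000000 UMIs of those cells. Ratios were computed for genes with at least 50 UMIs in the pair of groups compared, with exact conditional 95% intervals. Levels carry Garwood intervals and shares Clopper-Pearson intervals. All cover counting error only, and UMIs of 1 cell are not independent of each other, so the intervals are narrower than the spread between animals would be. With 1 library per genotype no test and no p-value was computed. Both the members and the gene lists were chosen with earlier results of these data known.

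Named genes were the 10 highest and 10 lowest by the bound nearest to 0 in each knockout against wild type. Against each neighbouring group they were the 10 highest by the smallest ratio over the libraries and the 10 lowest by the largest ratio. Examples of the lists were also named. Rule genes, haemoglobin, mitochondrial, ribosomal protein, X-inactivation, Y-linked, antigen receptor and unnamed genes were left out of the ranks. List examples other than the 4 genes with the most UMIs were chosen after their values were seen. Doublets were scored with Scrublet (scanpy 1.11.5), whose automatic threshold marked at most 0.0377% of cells, so the top-scoring 0.8% per 1000 cells were called, and called cells were kept. T and NK cells had at least 3 UMIs from at least 2 of their markers and a primary granule share under 1%, and called doublets were left out of them. Code ran in Python 3.11.15 with numpy 2.4.6, pandas 2.3.3 and scipy 1.17.1 and was tested on simulated data. Alternatives varied the thresholds of the rule, filters, depth, weighting, doublets and the minimum count. Restricting cells to those with Xist and no Y-linked RNA, and keeping the late neutrophil cells, were chosen after seeing the data. Some genes that met the naming rule are not reported here.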

Additional observations from a re-analysis of the deposited data

How the results depend on the processing

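No paired analysis was possible because each genotype has 1 library, which carries the only replicate number. The shares of dividing granule cells moved with the rule. In the wild-type, heterozygous and homozygous order they were 4.57%, 7.45% and 5.63% with a division sum of 3 UMIs, 5.25%, 8.02% and 6.69% with a granule share of 1%, 1.36%, 3.19% and 1.67% with one of 4%, and 2.64%, 5.13% and 2.96% with up to 25% mitochondrial UMIs. A division sum of 8 UMIs gave 3.07% in wild-type and 5.45% in heterozygous cells, and thinning gave 3.01% and 8.41%. Under 5% mitochondrial UMIs the homozygous share was 5.94%, and with at least 2000 UMIs per cell 5.79%. Keeping late neutrophil cells gave 8.96% in the heterozygous library.

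Counts of genes past 2-fold depended on the minimum count. With 20 UMIs they were 327 higher and 303 lower in heterozygous against wild-type cells, 221 and 325 in homozygous against wild-type, and 319 and 447 in homozygous against heterozygous. With 200 UMIs they were 50 and 28, 16 and 36, and 38 and 100. A granule share of 4% gave 57 lower in heterozygous against wild-type and 77 higher in homozygous against heterozygous cells. Equal weights for bins of granule share, which used 2 of the 4 bins, gave 206 lower in homozygous against wild-type. Cells with Xist and no Y-linked RNA gave 86 higher and 189 lower in heterozygous against wild-type and 117 lower in homozygous against heterozygous. Keeping late neutrophil cells gave 252 higher in heterozygous cells. Fewer cells, or more genes tested, enter several of these counts, and other causes were not tested.

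Of 717 list medians under alternatives, 692 stayed within the interval of the reported median over the list's genes, 23 moved out of it and 2 with an interval off 0 reversed. The sign changed in 74 of the 717, and in 68 of these the reported median lay within 0.1 of 0, as for the primary granule genes of heterozygous cells (0.22 in the Xist cells) and the brakes of homozygous cells (-0.16 at a granule share of 4%). The interferon median of homozygous against wild-type cells was -0.013 at a granule share of 4%, and the fatty acid oxidation median of heterozygous against wild-type cells was 0.032 in the Xist cells. Of 451 values for named genes, 411 were the same, 38 moved and 2 reversed in the Xist cells, heterozygous Col19a1 (-0.044) and Sox4 (0.54). Within the same cells Airn was -1.06, Irx5 -0.48, Snx7 -0.29, Kcnq5 -0.78 and Fpr1 0.74. At a granule share of 4% the S phase median of homozygous cells was -0.23, heterozygous Sox4 -0.09, Cftr -0.53 and Airn -0.55, and homozygous Airn -0.49. Without called doublets heterozygous Sox4 was -0.95.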
